A study of Mus musculus with 9 samples.

Results

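DNA replication genes encode the machinery that copies the genome in S phase of the cell cycle. A list of 52 mouse genes of origin licensing, origin firing, DNA synthesis, nucleotide supply and checkpoint control was compared between 5 tumours and 4 samples of normal skeletal muscle. Of the 52 genes, 46 had at least 1 probe set that the array annotation tied to them alone, out of 14440 such genes on the array, and the brightest probe set by mean level stood for each gene. Of these 46, 45 passed the filter on low values and were tested among 10650 genes; Tyms did not pass. Orc5, Pola2, Rfc4, Chaf1a, E2f3 and E2f8 were not analysed here.

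In each cell cycle a cell prepares its origins once. The origin recognition complex, with Cdc6 and Cdt1, loads the ring-shaped MCM helicase on DNA in G1, and geminin, encoded by Gmnn, holds Cdt1 back after S phase begins. The kinase Cdc7 with its activator Dbf4, and the factors Cdc45 and GINS, then turn the loaded rings into moving helicases, behind which polymerases, the sliding clamp PCNA and its loader RFC copy both strands. Many of these genes are known targets of the E2F transcription factors, and adult muscle fibres are cells that have left the cycle.

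The 5 tumours came from mice whose labels read MYF-5 CRE/SSM2 and were described as SYT-SSX tumours, after the fusion protein of human synovial sarcoma. Myf5, whose gene drives the Cre recombinase, is a regulator of the muscle lineage. Tumours 1 to 5 carried the names CC23 (tumour 1), CC17-B (tumour 2), CC17-A (tumour 3), SSM5 (tumour 4) and SSM4 (tumour 5). Muscles 1 to 4, all titled wild type, came from hind limb, intercostal muscle, forelimb and hind limb again, so genotype and tissue cannot be told apart in any comparison. Ages are not given in the sources used here. The labels also do not say which arrays are separate animals, and tumours 2 and 3 share the number CC17, so p-values measure only the spread between these samples.

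Values are intensities on a linear scale, brought to a common trimmed mean of each array, and 40% of the values of an array lay below a floor of 96.5 to 137, depending on the array. Summed over 14 muscle fibre genes, the intensity was 118017, 44221, 7288, 859.7 and 151747 in tumours 1 to 5, against 581877 to 829169 in the muscles, so the tumours held very different amounts of fibre RNA. Muscle 3 stood apart from the other muscles. Its 14 bone marrow and blood genes summed to 62839, against 1727, 6221 and 1671 in the other muscles, while the tumours lay between 746 and 1415. The granulocyte genes S100a8 at 15775, S100a9 at 21336, Ngp at 9506 and Camp at 7762 made up most of that sum. Hba-a1, a haemoglobin gene, lay below the floor at 40.1 in muscle 3, but it was above the floor in only 1 muscle and in 0 tumours. Alas2, of the same 14 genes, was at 194, 621, 443 and 233 in muscles 1 to 4. Results that rest on muscle 3 are given with and without it. Mki67, the general proliferation marker, was at 7037, 5441, 3873, 3082 and 2254 in tumours 1 to 5, against 101, 172, 873 and 104 in muscles 1 to 4. Every tumour lay above every muscle, and muscle 3 was the highest muscle.

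Replication genes were higher in the tumours as a group. With limma and an adjusted p under 0.05, 36 of the 45 tested members were higher in tumour, against 30.1% of all genes tested, and 0 were lower, against 17.9%. At least 2-fold higher were 33 members, against 21.9% of all genes. For 31 members all 5 tumours lay above all 4 muscles, which held for 25.2% of all genes. The members had a median log2 fold change of 1.87, or 1.74 with 4 genes set to their lower bounds, against 0.23 for all genes tested. Cdc6, Gins2, Chek1 and Brca1 were below the floor in every muscle on the probe sets used, so they passed the filter only through the tumours and had to differ. Of all 317 tested genes below the floor in every muscle, 304 were called higher. Of the other 41 tested members, 32 were called higher, against 28% of the other 10333 genes. Some of these were below the floor in part of the muscles. Pola1 was above it in 1 muscle, Dbf4, Pole, Rrm2 and Chaf1b in 2, and Pole2, Rfc3, Rfc5, Tk1, E2f1 and E2f2 in 3. Their folds, and the pairs that hold them, rest partly on values under the floor. Fewer cells of a type and less RNA per cell cannot be told apart in such bulk tissue. Without muscle 3, 35 members were called higher, against 26.1% of all genes, and Pold1 joined while Gins1 and Pold2 dropped out. Without muscles 2 and 3, 34 were called, against 24.1%. By role, 6 of 6 MCM subunits, 5 of 5 clamp and clamp loader genes, 4 of 4 tested nucleotide supply genes, 1 of 3 origin recognition genes and 1 of 3 RPA genes were called higher. Markers of other cell types also differed between the groups. The 5 macrophage genes, of which 3 were called higher, summed to 5327 to 11699 in tumours, against 3531 to 4216 in muscles. The 9 endothelial genes, of which 5 were called lower, summed to 2533 to 4231 in tumours, against 5094 to 6440 in muscles. The 8 lymphocyte genes summed to 357 to 522 in tumours, against 540.02 to 864 in muscles. Of these 8, only 1 passed the filter on low values, and it was not called. Their part in the result was not tested.

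**Figure D1:**
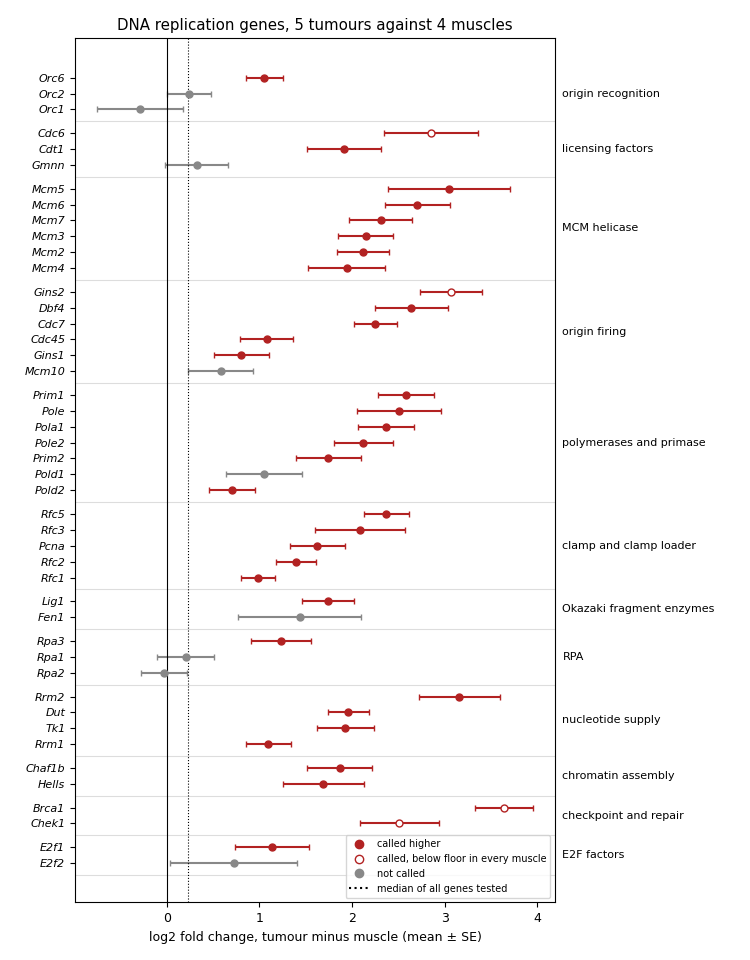
Log2 fold change, tumour minus muscle, of the 45 tested genes on the horizontal axis, with 1 row per gene, grouped by role; points are limma estimates and bars their standard errors over 5 tumours and 4 muscles. Red genes were called higher, open red circles were below the floor in every muscle, grey genes were not called, and the dotted line is the median of all genes tested at 0.23.

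The promoters of 4 members are shown because they hold different sets of the letters that E2F and the CCAAT-binding factor are known to bind, in genes that were and were not called. An E2F-type match was the run TTTGGCG, the run TTTCGCG, the run TTTCCCG or the run TTTGCCG, and the second motif was the run CCAAT, all read on either strand. Windows run 5′ to 3′ along the gene, from 250 bases before to 50 after the start site, with matches in capitals, and are RefSeq sequence of GRCm38.p6. Mcm5, Cdc6 and Rrm2 had the largest fitted log2 fold changes of the called genes in the MCM, licensing and nucleotide groups, although that of Cdc6 is known only as a bound. Orc1 was added after its value was seen, as a gene that was not called. The windows lie on the plus strand, at chr8:75109259-75109558 for Mcm5, chr11:98907901-98908200 for Cdc6, chr12:24708004-24708303 for Rrm2 and chr4:108579204-108579503 for Orc1. In the Mcm5 window the 2 E2F-type matches overlap each other.
Mcm5: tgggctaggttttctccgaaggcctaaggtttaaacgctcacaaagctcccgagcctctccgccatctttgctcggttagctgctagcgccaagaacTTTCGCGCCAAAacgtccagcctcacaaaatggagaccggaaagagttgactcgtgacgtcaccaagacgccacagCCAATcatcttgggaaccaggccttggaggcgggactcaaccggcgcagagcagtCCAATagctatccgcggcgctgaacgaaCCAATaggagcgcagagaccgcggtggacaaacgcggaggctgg
Cdc6: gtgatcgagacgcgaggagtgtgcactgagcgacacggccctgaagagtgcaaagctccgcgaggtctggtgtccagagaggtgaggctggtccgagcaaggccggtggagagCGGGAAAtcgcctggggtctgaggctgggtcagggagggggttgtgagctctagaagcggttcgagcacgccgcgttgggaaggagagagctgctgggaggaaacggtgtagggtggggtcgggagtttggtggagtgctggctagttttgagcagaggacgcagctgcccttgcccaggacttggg
Rrm2: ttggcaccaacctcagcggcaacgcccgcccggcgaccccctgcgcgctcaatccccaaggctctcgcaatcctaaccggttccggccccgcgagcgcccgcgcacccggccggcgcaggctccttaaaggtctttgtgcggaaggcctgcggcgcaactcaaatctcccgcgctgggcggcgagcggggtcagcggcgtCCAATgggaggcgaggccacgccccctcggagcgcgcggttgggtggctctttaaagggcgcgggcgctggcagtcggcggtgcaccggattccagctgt
Orc1: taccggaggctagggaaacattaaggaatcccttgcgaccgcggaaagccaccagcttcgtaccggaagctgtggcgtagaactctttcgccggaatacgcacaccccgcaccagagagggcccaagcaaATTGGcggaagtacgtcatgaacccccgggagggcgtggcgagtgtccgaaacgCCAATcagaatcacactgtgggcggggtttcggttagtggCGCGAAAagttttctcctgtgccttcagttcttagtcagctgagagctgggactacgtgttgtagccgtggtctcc

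Mcm5 held E2F-type matches at positions -153 and -148 from the start site, with 3 CCAAT matches. Cdc6 held 1 E2F-type match at -137, Rrm2 held no E2F-type match and 1 CCAAT match at -50, and Orc1 held 1 E2F-type match at -26 with 2 CCAAT matches. Of the 52 members, 45 had a window, and 22 of them (48.9%) held an E2F-type match, against 7.65% of 27025 genes with a window. CCAAT was present for 26 members (57.8%), against 41.1% of all genes. The median GC content of the windows was 61.3% for members and 52.7% for all genes. Members that were called higher held an E2F-type match in 13 of 30 cases (43.3%), and tested members that were not called in 6 of 8 (75%). The Rfc5 and E2f1 windows, of the members with the largest called changes in the clamp and E2F groups, held neither motif. Some genes had more than 1 window, with 54 windows for the 45 members and 32851 for all 27025 genes. A gene was counted where any of its windows held a match. By window, an E2F-type match was in 40.7% for members and 6.7% for all genes. All windows lay at annotated start sites, and sequence outside them was not searched. The E2f1 window therefore does not show that E2f1 lacks E2F sites.

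Of the 3 origin recognition genes tested, 1 rose. Orc6, the smallest subunit of the complex, was at 665, 867, 621, 807 and 637 in tumours 1 to 5, against 438, 331, 294 and 296 in muscles 1 to 4. All tumours lay above all muscles, and the log2 fold change was 1.05 ± 0.20 (SE; adjusted p = 0.0014). Orc1, the largest subunit, was at 535, 110.0, 403, 227 and 106 in tumours, against 353, 336, 169 and 313 in muscles. These ranges overlapped and the log2 difference of -0.29 was not called (adjusted p = 0.636). A second Orc1 probe set, which was dimmer, gave a log2 fold change of 1.16 and was called (adjusted p = 0.0482 over 17433 probe sets), so the 2 probe sets disagree. Orc2 was at 1107, 986, 599, 762 and 533 in tumours, against 603, 649, 640.2 and 709 in muscles, a log2 difference of 0.24 (adjusted p = 0.435) with tumours 3 and 5 below every muscle.

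Both loading factors were called higher, Cdc6 through its tumours alone, and their inhibitor did not pass the test. Cdc6 was at 321, 465, 392, 108 and 155 in tumours and below the floor at 22.1, 6.81, 58.4 and 13.4 in muscles. It was at least 2.26-fold higher, a bound taken against the floor, and every tumour lay above every muscle. Cdt1 was at 1824, 1952, 2278, 873 and 609.6 in tumours, against 245, 299.8, 566 and 339 in muscles. Its groups did not overlap, although tumour 5 was only just above muscle 3, and the log2 fold change was 1.91 ± 0.40 (adjusted p = 0.00241). Gmnn was at 1487, 1558, 1522, 765 and 561 in tumours, against 645, 1141, 1023 and 751 in muscles. Tumours 1 to 3 were above every muscle and tumours 4 and 5 were not, and the log2 difference was 0.32 ± 0.34 (adjusted p = 0.454).

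All 6 subunits of the MCM helicase rose together, with log2 fold changes from 1.94 for Mcm4 to 3.05 for Mcm5. Mcm2 was at 2034, 2355, 2812, 1299 and 1189 in tumours, against 372, 319.5, 506 and 466 in muscles. The lowest tumour was above the highest muscle, and the log2 fold change was 2.12 ± 0.28 (adjusted p = 0.000135). Mcm6 was at 1922, 2600.3, 2624, 1437 and 1106 in tumours, against 166, 502, 303 and 203 in muscles, a log2 fold change of 2.70 ± 0.35 (adjusted p = 0.000119). Muscle 2 was its highest muscle and still lay below every tumour. Mcm5 was at 3722, 4194, 3100.5, 1263 and 1134 in tumours, against 119, 208, 1352 and 143 in muscles, and had the largest standard error of the 6 log2 fold changes. Muscle 3 lay above tumours 4 and 5, and 8.10-fold above the other muscles. The log2 fold change of Mcm5 was 3.05 ± 0.66 (adjusted p = 0.00295), and 3.80 without muscle 3 (adjusted p = 0.000225). Mcm3, Mcm4 and Mcm7 averaged 1248 ± 485, 3645 ± 2134 and 5986 ± 2592 in tumours (SD, n = 5), against 262 ± 78.7, 817 ± 208 and 1113 ± 277 in muscles (SD, n = 4). For Mcm3 the call rested on the probe set: among those whose names end in a plain _at, the brightest gave 0.16 (adjusted p = 0.819), while 3 other Mcm3 probe sets were called higher.

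**Figure D2:**
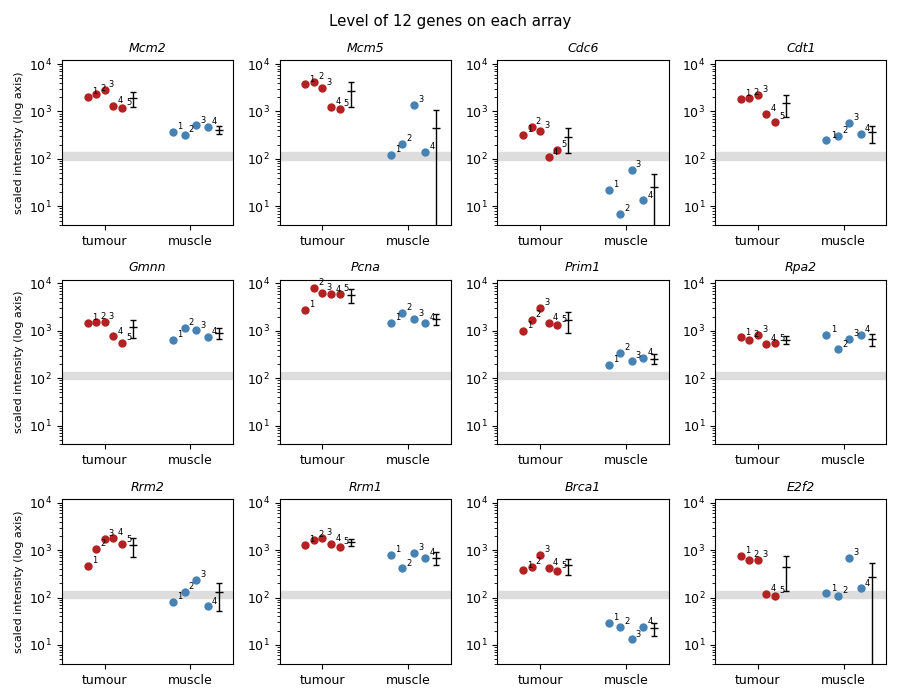
Scaled intensity of 12 genes on a log axis, with 5 tumours on the left and 4 muscles on the right of each panel; points are arrays, numbered as in the text, the dash and bar are mean and SD (a bar that reaches below the axis runs off the panel), and the grey band spans the floors of 96.5 to 137. Mcm2, Cdc6 and Brca1 have separate groups, while muscle 3 lies among the tumours for Mcm5 and E2f2, and Rpa2 and Gmnn overlap.

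Of the 6 genes that fire origins, 5 rose. Gins2, a GINS subunit, was at 304, 613, 729, 356 and 411 in tumours and below the floor at 44.2, 31.6, 27.9 and 64.9 in muscles, at least 3.99-fold higher. Dbf4 was at 762, 899.8, 849, 404 and 388 in tumours, against 151, 33.9, 101 and 96.2 in muscles, a log2 fold change of 2.64 ± 0.39 (adjusted p = 0.000275). Its kinase Cdc7 was at 857, 854, 709, 661 and 664 in tumours, against 145, 210.0, 138 and 101 in muscles, a log2 fold change of 2.25 ± 0.23 (adjusted p = 2.97e-05). The groups of all 3 genes were separate, and tumours 4 and 5 were the lowest tumours for Dbf4. A second Cdc7 probe set, which was dimmer, gave 1.24 and was not called (adjusted p = 0.0698 over 17433 probe sets). Cdc45, the helicase activator, averaged 349 ± 112 in tumours (SD, n = 5), against 154 ± 39.2 in muscles (SD, n = 4), a log2 fold change of 1.08 (adjusted p = 0.00924) that the mean of its 2 probe sets lowered to 0.68 (adjusted p = 0.0849). Gins1 averaged 414 ± 154 in tumours and 216 ± 20.9 in muscles, a log2 fold change of 0.80 (adjusted p = 0.0439) that stayed called in 2 of the 9 fits that left out 1 array and in 1 of 4 other scalings. Mcm10, which helps to activate the helicase, was at 377, 239, 668, 181 and 228 in tumours, against 196, 207, 236 and 157 in muscles. Tumour 4 lay below 3 of the muscles, and the log2 difference of 0.58 was not called (adjusted p = 0.194).

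Of the 7 tested polymerase and primase members, 6 rose, and further subunits of polymerases delta and epsilon stood in a second list. Prim1, the catalytic primase subunit, was at 988, 1719.9, 3049, 1479.9 and 1321 in tumours, against 189.6, 336, 235 and 269 in muscles, a log2 fold change of 2.58 ± 0.31 (adjusted p = 6.75e-05). Pole, the catalytic subunit of the leading-strand polymerase epsilon, was at 373, 519, 461, 332 and 304 in tumours, against 29.6, 15.3, 104 and 135 in muscles, a log2 fold change of 2.51 ± 0.45 (adjusted p = 0.000944). Its second subunit Pole2 was at 298, 922, 598, 432 and 441 in tumours, against 73, 117, 105 and 125 in muscles, a log2 fold change of 2.12 ± 0.32 (adjusted p = 3e-04). Every tumour was above every muscle for these 3 genes. Pola1, the catalytic subunit of polymerase alpha, averaged 664 ± 169 in tumours and 123 ± 68 in muscles, and Prim2, the other primase subunit, averaged 778 ± 349.9 in tumours and 205 ± 53.9 in muscles (SD, n = 5 and n = 4 for both genes). Pold1, the catalytic subunit of polymerase delta, was at 1833, 1058, 749, 536 and 389.6 in tumours, against 349.5, 374, 579.9 and 253 in muscles. Tumours 4 and 5 lay below muscle 3, and the log2 difference of 1.05 ± 0.41 missed the threshold (adjusted p = 0.053). Without muscle 3 it was 1.26 (adjusted p = 0.0436). Pold2 averaged 1538 ± 550.0 in tumours and 899 ± 108 in muscles, a log2 fold change of 0.70 (adjusted p = 0.0388) that stayed called in 3 of the 9 fits that left out 1 array and in 1 of 4 other scalings.

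The sliding clamp and its loader rose in all 5 genes measured, and in each the groups were separate. Pcna, the clamp itself, was at 2781, 7919, 6243, 5871 and 5962 in tumours, against 1492, 2412, 1772 and 1493 in muscles, a log2 fold change of 1.62 ± 0.29 (adjusted p = 0.000934). Tumour 1 was far below the other tumours. Rfc5, a clamp loader subunit, was at 584, 784, 1015, 572 and 493 in tumours, against 101, 134, 108 and 123 in muscles, a log2 fold change of 2.37 ± 0.25 (adjusted p = 3.31e-05). Rfc3, another one, was at 494, 558, 579, 327 and 417 in tumours, against 15.8, 159.6, 141 and 172 in muscles, a log2 fold change of 2.08 ± 0.49 (adjusted p = 0.00456). Muscle 1 was far below the other muscles, and without it the Rfc3 value was 1.47 (adjusted p = 0.00161). The log2 fold changes of Rfc1 and Rfc2 were smaller, at 0.98 and 1.39 (adjusted p = 0.0012 and 0.000357). Dimmer Rfc2 probe sets gave 0.45 and 1.22 and were not called (adjusted p = 0.386 and 0.0673 over 17433 probe sets).

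Lig1, the ligase that seals Okazaki fragments, was at 1151, 801, 1134, 832 and 562 in tumours, against 219, 229, 405 and 184 in muscles. Every tumour was above every muscle, and the log2 fold change was 1.74 ± 0.28 (adjusted p = 0.000475). Fen1, the nuclease that trims their flaps, was at 3786, 2699, 23472, 1815 and 1873 in tumours, against 1076, 987, 2509.6 and 1467 in muscles. Tumour 3 was far above all other arrays, muscle 3 lay above tumours 4 and 5, and the log2 difference of 1.43 ± 0.66 was not called (adjusted p = 0.0945). Without muscle 3 it was 1.71 (adjusted p = 0.0834). The dimmer Fen1 probe set gave 1.17 and was called (adjusted p = 0.00817). Names ending in _x_at, as that of the brighter Fen1 probe set does, mark in the manufacturer's scheme probe sets that can also bind other transcripts. The brightest Mcm4, Mcm5 and Pold1 probe sets carry such names too. Plain _at probe sets gave 1.93 for Mcm4, 3.70 for Mcm5 and 0.45 for Pold1, of which the first 2 were called.

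Of the 3 subunits of RPA, the protein that coats single-stranded DNA, Rpa3 rose and Rpa1 and Rpa2 were not called, and the difference between the subunits was not tested. Rpa3 was at 1245, 3719, 3409, 2411 and 1910.4 in tumours, against 791, 1519, 953 and 852 in muscles, a log2 fold change of 1.23 ± 0.33 (adjusted p = 0.00959). Tumour 1 lay below muscle 2. Rpa1 was at 8574, 7151, 4770.0, 3749 and 3229 in tumours, against 5299, 3081, 5230.1 and 4600.1 in muscles, a log2 difference of 0.20 (adjusted p = 0.612). Rpa2 was at 724, 651, 814, 524 and 543 in tumours, against 808, 407, 669 and 829 in muscles, a log2 difference of -0.03 (adjusted p = 0.94). Tumours and muscles overlapped in both of these genes.

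Enzymes that supply deoxynucleotides rose in all 4 tested genes. Rrm2, the small subunit of ribonucleotide reductase that is made in S phase, was at 462, 1060.0, 1738, 1811 and 1319 in tumours, against 81.6, 133, 236 and 65.3 in muscles. All tumours were above all muscles, and the log2 fold change was 3.16 ± 0.44 (adjusted p = 0.000171). Rrm1, the large subunit, was at 1311, 1619.8, 1790.3, 1372 and 1180.1 in tumours, against 795, 411, 880.1 and 680.4 in muscles, a log2 fold change of 1.09 ± 0.24 (adjusted p = 0.00342). A second Rrm1 probe set gave -0.16 (adjusted p = 0.758), and their mean gave 0.47 (adjusted p = 0.124). Tk1, the thymidine kinase of S phase, was at 364, 589, 768, 404 and 515 in tumours, against 136, 70.5, 117 and 193 in muscles, a log2 fold change of 1.93 ± 0.31 (adjusted p = 0.000439). Dut, which removes dUTP, was at 1152, 1360.5, 1778, 1255 and 914 in tumours, against 293, 405, 281 and 286 in muscles, a log2 fold change of 1.96 ± 0.22 (adjusted p = 5.31e-05). Neither gene had a tumour as low as a muscle. Tyms, thymidylate synthase, was at 187, 44, 81.4, 8.42 and 7.94 in tumours, against 5.4, 26.9, 50.7 and 5.4 in muscles. Only tumour 1 was above its floor, so Tyms was not tested and no fold is given.

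Chaf1b, a subunit of the chromatin assembly factor that follows the fork, was at 562, 483, 544, 265 and 208 in tumours, against 74.7, 66.7, 130.0 and 115 in muscles, a log2 fold change of 1.87 ± 0.35 (adjusted p = 0.00122). Hells, a chromatin remodeller, was at 1427, 583, 918, 434 and 293 in tumours, against 138, 299.8, 224 and 121 in muscles, a log2 fold change of 1.69 ± 0.43 (adjusted p = 0.00791). Its tumour 5 lay just below muscle 2. Another Hells probe set, which became the brightest when muscle 2 was left out, gave 3.65 (adjusted p = 9.97e-05). With the probe set held, the value without muscle 2 was 1.91.

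Both checkpoint and repair genes were below the floor in every muscle on the probe sets used. Chek1, the kinase that signals stalled forks, was at 206, 336, 334, 208 and 172 in tumours and 40.5, 68.5, 6.11 and 24.1 in muscles, at least 2.18-fold higher. Brca1, a homologous recombination gene, was at 374, 451, 796, 417 and 363 in tumours and 29.2, 24.3, 13.1 and 23.6 in muscles, at least 4.01-fold higher on this probe set. Tumours and muscles did not overlap for either gene on these probe sets. The Brca1 probe sets disagreed: a second one, of nearly equal mean log2 level, averaged 107 in tumours and 167 in muscles, gave a log2 difference of -0.67 (adjusted p = 0.146) and replaced the first when tumour 2, 3, 4 or 5 was left out. With the first probe set held, leaving out 1 array gave fitted log2 values of 3.45 to 3.72. These rest on muscle values below the floor, so the size is known only as the bound.

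E2f1, an activator E2F, was at 202, 163, 292, 349 and 297 in tumours, against 149, 149.9, 139 and 36.2 in muscles. The groups did not overlap, muscle 4 was far below the other muscles, and the log2 fold change was 1.14 ± 0.39 (adjusted p = 0.0339). Leaving out tumour 4, tumour 5 or muscle 4 gave 1.02, 1.08 and 0.73 and ended the call (adjusted p = 0.0736, 0.064 and 0.0827). The call was also lost in 3 of 4 other scalings. A second E2f1 probe set gave 1.23 over all arrays and was called (adjusted p = 0.0099 over 17433 probe sets). E2f2, a second activator, was at 753, 625, 622, 120.4 and 109 in tumours, against 123, 108, 683 and 156 in muscles. Tumours 1 to 3 and muscle 3 were high and the other 5 arrays were low. The log2 difference was 0.72 ± 0.69 (adjusted p = 0.411), and 1.29 without muscle 3 (adjusted p = 0.134).

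The difference of 2 genes' log2 levels within an array depends little on the scaling of that array, and 8 such pairs were compared with an exact two-sided permutation test over all 126 splits of the arrays, adjusted over the 8 pairs. The smallest p that this design allows is 0.0159. Cdt1 minus Gmnn on the log2 scale was 0.29, 0.32, 0.58, 0.19 and 0.12 in tumours 1 to 5, against -1.34, -1.87, -0.84 and -1.11 in muscles 1 to 4. All tumours were above all muscles, by 1.59 on average (exact adjusted p = 0.0254). Rrm2 minus Rrm2b, the small subunit used outside S phase, was -1.01, 0.23, 1.24, 0.71 and 0.30 in tumours, against -3.75, -2.86, -2.36 and -3.95 in muscles. The mean difference was 3.52. Rrm2b alone was at 945, 902, 728, 1104 and 1066 in tumours, against 1301, 1062, 1277 and 1242 in muscles. Mcm2 minus Orc2, Rrm2 minus Rrm1 and E2f1 minus E2f4 were higher in tumours by 1.88, 2.06 and 1.40. These 3 pairs and Rrm2 minus Rrm2b had no overlap between tumours and muscles (exact adjusted p = 0.0254 for each). E2f4, a repressor E2F of resting cells, was at 186, 153, 307, 155 and 231 in tumours, against 254, 231, 248 and 234 in muscles. Tk1 minus Tk2, the mitochondrial thymidine kinase, differed by 1.16 (exact adjusted p = 0.0635), with muscle 4 above tumours 1 and 4. Pole2 minus Pole3 differed by 1.19 (exact adjusted p = 0.163) and Dbf4 minus Cdc7 by 0.39 (exact adjusted p = 0.603), and their groups overlapped. Tk2 was at 188, 211, 285, 300.2 and 227 in tumours, against 128, 245, 109 and 89.6 in muscles. Pole3, a further subunit of polymerase epsilon, was at 262, 294, 413, 282 and 203 in tumours, against 74.8, 476, 275 and 30.8 in muscles. The 5 pairs without overlap kept the same side of the threshold under 4 other scalings (exact adjusted p = 0.0254). Leaving out muscle 1, 2 or 3 gave an exact adjusted p of 0.0571 for these 5 pairs, and leaving out muscle 4 gave 0.0408. Their groups stayed separate, and with fewer arrays the smallest p that the test allows is larger. These values therefore follow from the number of arrays and of pairs at that smallest p, and tell nothing about single muscles.

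**Figure D3:**
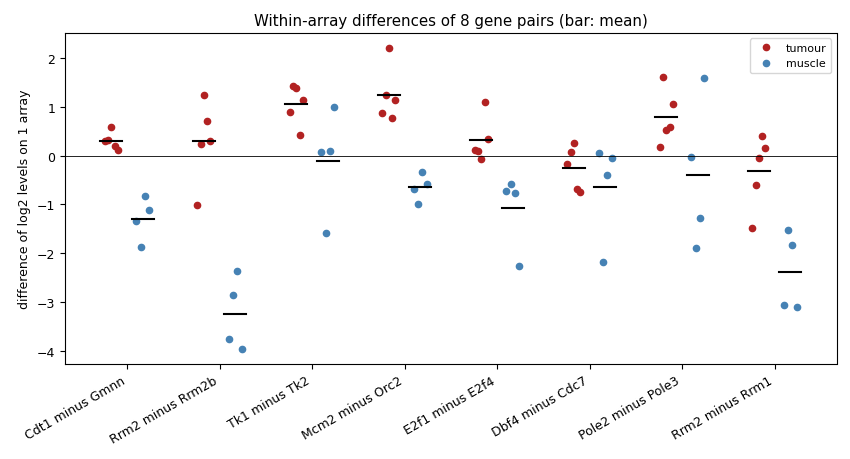
Difference of 2 genes' log2 levels on the same array, on the vertical axis, for 8 pairs, with 5 tumours to the left of 4 muscles in each pair; points are arrays and bars are means. Groups are separate for Cdt1 minus Gmnn, Rrm2 minus Rrm2b, Mcm2 minus Orc2, E2f1 minus E2f4 and Rrm2 minus Rrm1, and overlap in the other 3 pairs.

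Other genes of replication and S phase were also higher for the most part. Of 36 tested genes of a second list (of 45 listed), 26 were called higher and 0 lower, against 30.1% and 17.9% of all genes, with a median log2 fold change of 1.43. The 26 include Mcm9 and Dscc1, which were below the floor in every muscle and passed the filter only through the tumours. With these 2 set to their lower bounds the median was 1.35. Ccna2, the S phase cyclin A, was at 2485, 2285, 2033, 1639 and 1279 in tumours, against 19.1, 179.6, 231 and 84.1 in muscles, a log2 fold change of 4.06 ± 0.49 (adjusted p = 7.69e-05). Top2a, the topoisomerase of dividing cells, was at 3085, 4427, 4136, 1837 and 1846 in tumours, against 202, 185, 290.1 and 104 in muscles, a log2 fold change of 3.84 ± 0.35 (adjusted p = 1.4e-05). In both genes every tumour was above every muscle. Ccna2 was above the floor in only 2 muscles, so its fold rests partly on values under the floor.

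A further list held 18 genes of the same biochemistry that are used outside S phase, such as mitochondrial replication, base excision repair, pocket proteins and cell cycle inhibitors. Of these, 2 were called higher and 2 lower, against 30.1% and 17.9% of all genes, with a median log2 fold change of 0.02, against 0.23 for all genes. Polb, the polymerase of base excision repair, was at 1435, 1204, 1289, 1347 and 1509 in tumours, against 4109, 3171, 3925 and 4127 in muscles, and the log2 level fell by 1.48 (adjusted p = 4.88e-05). Polg, the mitochondrial DNA polymerase, was at 84.2, 237, 156, 121 and 127 in tumours, against 286, 215, 249 and 318 in muscles, and fell by 0.87 on the log2 scale (adjusted p = 0.0329). Polb was lower in every tumour, while tumour 2 lay above muscle 2 for Polg. The genes that rose were both cyclin-dependent kinase inhibitors. Cdkn1a was at 4946, 2381, 2497, 1139.7 and 2249 in tumours, against 713, 1164, 952 and 1029 in muscles, and Cdkn1c was at 4386, 3080.3, 662, 1387 and 972 in tumours, against 412, 761, 647 and 456 in muscles. Tumour 1 was the highest array for both, their log2 fold changes were 1.31 and 1.55 (adjusted p = 0.00948 and 0.0234), and each had a tumour below its highest muscle.

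Among the muscles, muscle 3 was the highest for 17 of the 45 members (37.8%), against 20.8% of all genes. Its log2 level was above the mean of the other muscles by a median of 0.31 over the members and 0.02 over all genes. The genes that stood out were Mcm5 at 1352 and E2f2 at 683, 8.10-fold and 4.87-fold above the other muscles, with Rrm2 and Fen1 at 2.38-fold and 2.15-fold. Cdc6 stayed below the floor in muscle 3, and Chek1 and Brca1 were lowest there. The bone marrow and blood genes also had their highest sum in this array, with 13 of 14 above the floor in it. Not all were highest there. Alas2 and Cd79b were highest in muscle 2, at 621 and 219, against 443 and 157 in muscle 3. Hba-a1 was highest in muscle 4, at 107, and the rest of the list in muscle 3. The part of this list in the result was not tested. Without muscle 3 the median log2 fold change of the members was 1.91.

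**Figure D4:**
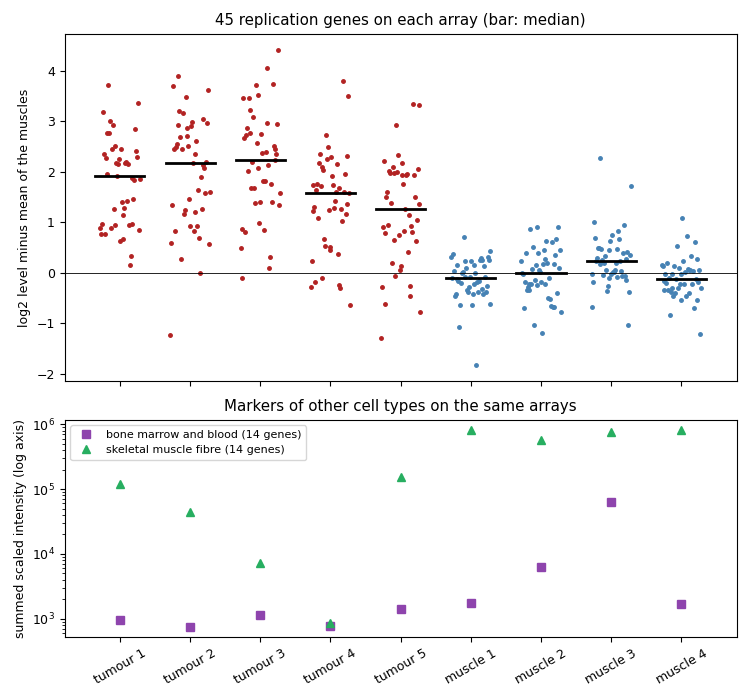
Upper panel, log2 level of each of the 45 tested genes minus its mean over the 4 muscles, by array, with bars for medians; lower panel, summed scaled intensity of 14 bone marrow and blood genes and 14 muscle fibre genes on a log axis. The tumours' medians run from 1.25 in tumour 5 to 2.22 in tumour 3, and muscle 3 has both the highest median of the muscles, 0.23, and the highest bone marrow sum.

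Among the tumours, those named CC stood above those named SSM for many members. All 3 CC tumours were above both SSM tumours for 26 of 45 members, against 19.8% of all genes, and below them for 1, E2f1, against 22.2%. These counts are a description of 3 against 2 arrays, and no test was made, since 2 of the 3 share a number. The order held for all 6 MCM subunits, all 3 licensing factors and 5 of 6 firing genes, and for 0 of 4 nucleotide supply genes. It held for 4 of the MCM subunits with values as deposited or centred on ribosome and proteasome genes, and for 5 with arrays centred on their median. Mcm5 averaged 3672 in CC tumours and 1199 in SSM tumours, and Cdt1 averaged 2018 in CC and 741 in SSM tumours. E2f2 averaged 667 in CC and 115 in SSM tumours, whereas E2f1 averaged 219 in CC and 323 in SSM tumours. Rrm2 averaged 1087 in CC and 1565 in SSM tumours, with tumour 3 above tumour 5. The members' median log2 difference was 0.56, against -0.04 for all genes. Under the values as deposited, 16 members were above, against 9.75% of all genes, and the members' median was 0.25, against -0.35 for all genes. The other scalings gave 16 to 29 members, against 10.4% to 18.7% of all genes. Tumour 5 was the lowest tumour for 29 members (64.4%), against 19.9% of all genes.

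**Figure D5:**
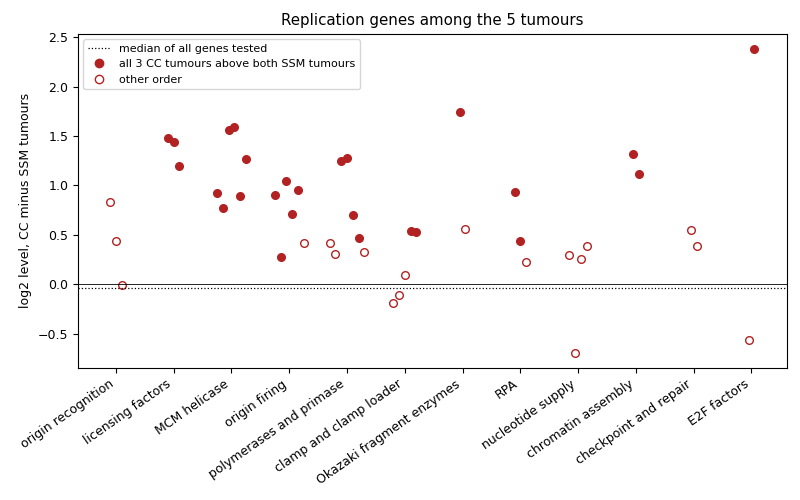
Mean log2 level in the 3 CC tumours minus that in the 2 SSM tumours, by role, 1 point per gene; filled points mark genes for which every CC tumour is above every SSM tumour, and the dotted line is the median of all genes tested at -0.04. MCM, licensing and chromatin genes lie at 0.77 (Mcm3) or above, while clamp and nucleotide genes lie between -0.69 (Rrm2) and 0.54 (Rfc3).

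Fibroblast genes moved with the same division, with a summed intensity of 28152 to 41894 in CC tumours and 72869 to 110751 in SSM tumours over 8 genes. The sums of 2 further lists did so too. Muscle precursor genes summed to 2643 to 3402 in CC tumours and 1197 to 2561 in SSM tumours over 7 genes. Of the 7, Pax3 alone had every CC tumour above both SSM tumours, at 1955, 1102 and 1228 against 313 and 362. Myog and Cdh15 were highest in tumour 5, at 425 and 223. Lymphocyte genes summed to 357 to 458 in CC tumours and 478 to 522 in SSM tumours over 8 genes, of which 4 were above the floor in a tumour. The part of these 3 lists in the order was not tested. The sums of muscle fibre, macrophage and endothelial genes did not divide the tumours in this way, but single genes did. Of the 5 macrophage genes, Cd68, Adgre1 and Cd14 had both SSM tumours above every CC tumour, and C1qb and Aif1 did not. Cd68 was at 153, 649 and 283 in CC tumours 1 to 3, against 795 and 952 in SSM tumours 4 and 5. Of the 9 endothelial genes, Kdr alone had every CC tumour above both SSM tumours. The part of these genes in the order was not tested either. Tumours 4 and 5, with fibre sums of 859.7 and 151747, had member medians of 1.58 and 1.25 in log2 level above the muscle mean. With tumours 1 and 5 left out, which held the most fibre RNA, 32 of 42 tested members were called higher, against 28% of all genes. The part of fibre RNA in the result was not tested.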

How the data were processed

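Total RNA of 5 tumours and 4 skeletal muscles was hybridised to Affymetrix arrays, 1 array a sample. The deposited intensities came from MAS5, per the submitters' processing notes; its version and scaling target are not given in the sources used here. The table held 30508 probe sets.

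Because the 2% trimmed means of the arrays differed by more than 10%, arrays were scaled to a common one. Probe sets with a single gene symbol (25581) were reduced to 1 per gene, the one with the highest mean log2 level. The floor was the 40th percentile of an array, and genes at or above it on at least 4 arrays were tested. Levels were log2(scaled value + 16), so folds of dim genes are understated. The test was limma's (version 3.58.1, R 4.3.3; lmFit, then eBayes with trend), two-sided, and p-values were adjusted by Benjamini-Hochberg over 10650 genes and called under 0.05. Genes under the floor throughout a group got only a bound against the floor. Precision is limited by how few arrays there were.

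The members, lists, pairs and tests were chosen with earlier results of these data known. Values on each array are given for the 2 called members with the largest change in each role, members not called or below the floor, named key genes and the genes of the pairs, and for the called genes of largest change in 2 further lists. A gene of the first of these lists is not reported here. The genes most like the members were not sought, because a correlation over arrays that fall into separate groups of tumour and muscle carries no more than that division. Alternatives changed the scaling (4), the pseudocount (1 and 64), the filter (2), the choice of probe set (2) and the settings of the fit (3), or used the CC17 tumours averaged or each array left out in turn. Leaving out muscles 2 and 3, or tumours 1 and 5, was chosen after seeing the data, as were the pairs under other scalings, the Orc1 promoter and the fits with the probe sets held.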

Additional observations from a re-analysis of the deposited data

Results flagged for a closer look

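In groups of 4 or 5 arrays, a lone array was picked out where its gap to the nearest other array was large against the whole range (beyond Dixon's critical value). Of 90 groups, 9 had such an array, and chance gives about 1 in 20.

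Among the tumours, tumour 1 was low for Pcna at 2781. Tumour 3 was high for Fen1 at 23472 and for Brca1 at 796. Among the muscles, muscle 3 was low for Orc1 at 169 and high for Mcm4 at 1127, muscle 2 was high for Pola1 at 225 and for Dut at 405, muscle 1 was low for Rfc3 at 15.8, and muscle 4 was low for E2f1 at 36.2.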

How the results depend on the processing

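Over 25 alternatives, 29 of the 36 members called higher kept their call in each one that tested them, and 0 members were called lower. Members called higher numbered 23 where every array had to reach the floor, against 31.5% of all genes. That filter left 30 members to test, of which 20 were at least 2-fold higher. Leaving out 1 array gave 33 to 35 members higher, 30 to 34 at least 2-fold higher and 22 to 25 of the second list higher. Of all genes, 26.1% to 32% were called higher in these fits. Other scalings moved the median of all genes from 0.23 to between 0.05 and 0.55 and the members higher to between 33 and 38. The share of all genes called higher was 22.6% to 38.8% under these scalings. Among all genes, 3202 were higher and 1910 lower, against 2408 and 2197 with arrays centred on their median and 4127 and 1215 with a centring on genes of the ribosome and proteasome. Genes used outside S phase called higher (2) numbered 1 with quantile normalization, 5 with the ribosome and proteasome centring, 4 with the mean of all probe sets, 5 with array weights, 5 with tumours 1 and 5 left out, and 1 to 4 with 1 array left out (4 without tumour 1, and 1 without tumour 2, muscle 1 or muscle 4). The share of all genes called higher was 24.8%, 38.8%, 27.6%, 35%, 28% and 26.1% to 32% in these fits, in that order.

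Single members that turned direction were Orc1 (0.031 with the ribosome and proteasome centring, 0.44 with the mean of all probe sets), Rpa2 (0.29 with that centring, and 0.045, 0.033, 0.073 and 0.085 without tumour 4, tumour 5, muscle 1 and muscle 4, over a range of -0.25 to 0.085), Rpa1 (-0.12 with array weights) and Brca1. The other Brca1 probe set gave -0.77 with a pseudocount of 1, -0.68 with the CC17 tumours averaged, -0.67, -0.68, -0.63 and -0.48 without tumours 2 to 5 in turn, and -0.71 with tumours 1 and 5 left out. Without tumour 1 the first probe set stayed in use, with a fitted value of 3.73 that rests on muscle values below the floor. E2f1 lost its call in 7 alternatives, Gins1 in 13 and Pold2 in 11.

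Pairs: leaving out 1 array gave 1.40 to 1.74 for Cdt1 minus Gmnn, 3.28 to 3.86 for Rrm2 minus Rrm2b, 1.65 to 2.01 for Mcm2 minus Orc2, 1.001 to 1.72 for E2f1 minus E2f4, 1.82 to 2.36 for Rrm2 minus Rrm1, 0.66 to 1.52 for Tk1 minus Tk2, 0.69 to 1.85 for Pole2 minus Pole3 and -0.12 to 0.62 for Dbf4 minus Cdc7. Without muscle 4, Tk1 minus Tk2 and Pole2 minus Pole3 passed the threshold (exact adjusted p = 0.0408), and with a pseudocount of 64 Tk1 minus Tk2 was 1.01 (exact adjusted p = 0.0423). Dbf4 minus Cdc7 was -0.35 with the mean of all probe sets and -0.26 with muscles 2 and 3 left out. The exact adjusted p of the 5 called pairs was 0.152 with muscles 2 and 3 left out (1.52, 4.14, 1.87, 1.57 and 2.76 in the order above) and 0.0914 with tumours 1 and 5 left out (1.65, 3.96, 2.05, 1.46 and 2.30). Before adjustment these were the smallest p that so few arrays allow, so they do not bear on the arrays left out. Quantile normalization changed no call of a pair. The other scalings changed none either, but they cancel in a pair fully or nearly so. No paired analysis was possible because the labels give no shared replicate numbers.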
